A study of Schizosaccharomyces pombe with 6 samples.

Results

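Of 7268 features counted in polyadenylated RNA of fission yeast, *Schizosaccharomyces pombe*, 9 were chosen here by name as the phosphate genes and a neighbouring non-coding RNA, by a rule that uses no measured value but was written with earlier results of these data known. They are the acquisition genes pho1 (SPBP4G3.02), pho84 (SPBC8E4.01c), tgp1 (SPBC1271.09) and SPBPB2B2.06c, the regulators pho7 (SPBC27B12.11c), csk1 (SPAC1D4.06c) and aps1 (SPAC13G6.14), the thiamine-repressible acid phosphatase pho4 (SPBC428.03c), and the non-coding RNA SPNCRNA.1343. All 9 passed the filter on low counts. Wild-type cells (strain EHB7) and cpn1∆ cells (strain EHB7577) were compared, with 3 libraries per genotype, and the study asked how loss of Cpn1 changes the transcriptome. Both strains were h+ and carried ade6-210, leu1-32, ura4-D18 and an ade6+ reporter in the outer repeats of centromere 1 (otr1R:ade6+), and both were grown in rich medium (YES) at 32 °C to log phase. The mutant also carried cpn1::HygMX6 and is called the mutant below. All libraries of a genotype came from 1 strain, so any other difference between the strains and the deletion cannot be told apart, and p-values measure the spread between libraries of these strains.

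Cells of this yeast take up phosphate with a small set of secreted and membrane proteins. Pho1 is an acid phosphatase at the cell surface, Pho84 carries inorganic phosphate across the plasma membrane, and Tgp1 carries glycerophosphodiesters. Their genes are switched on by the transcription factor Pho7 when phosphate is scarce. In phosphate-rich medium each of the pho1, pho84 and tgp1 promoters is crossed by transcription of a non-coding RNA that starts upstream (prt, prt2 and nc-tgp1), which holds the gene down. Where that upstream transcript is cleaved and terminated depends on the RNA polymerase II tail, on 3′ end processing factors and on inositol pyrophosphates, which Asp1 makes and Aps1 breaks down.

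The 300 bases before the annotated start of each acquisition gene are shown because Pho7 acts on promoters of this gene set and the genes differ in the motifs found there. The sequences are from RefSeq with the ASM294v3 genome build, which is not the build the reads were counted on. They read 5′ to 3′ along the gene, from chrII:4447206-4447505 (plus strand, pho1), chrII:4443801-4444100 (plus strand, pho84), chrII:352412-352711 (minus strand, tgp1) and chrII:4471165-4471464 (minus strand, SPBPB2B2.06c). Capitals mark the Pho7 recognition motif of 12 bases in pho1, tgp1 and SPBPB2B2.06c, and TATAAA or its reverse complement TTTATA in pho84.
pho1: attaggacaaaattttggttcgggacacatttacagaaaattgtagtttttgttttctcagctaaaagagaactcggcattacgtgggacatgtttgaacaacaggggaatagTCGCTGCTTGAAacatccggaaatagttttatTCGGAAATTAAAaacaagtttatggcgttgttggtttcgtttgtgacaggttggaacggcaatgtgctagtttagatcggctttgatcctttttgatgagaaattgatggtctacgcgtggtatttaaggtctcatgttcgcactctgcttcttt
pho84: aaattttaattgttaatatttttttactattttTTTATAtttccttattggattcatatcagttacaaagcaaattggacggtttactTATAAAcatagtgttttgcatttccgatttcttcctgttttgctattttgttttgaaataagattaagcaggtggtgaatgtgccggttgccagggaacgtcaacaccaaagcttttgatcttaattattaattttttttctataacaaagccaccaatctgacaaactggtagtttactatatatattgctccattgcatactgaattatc
tgp1: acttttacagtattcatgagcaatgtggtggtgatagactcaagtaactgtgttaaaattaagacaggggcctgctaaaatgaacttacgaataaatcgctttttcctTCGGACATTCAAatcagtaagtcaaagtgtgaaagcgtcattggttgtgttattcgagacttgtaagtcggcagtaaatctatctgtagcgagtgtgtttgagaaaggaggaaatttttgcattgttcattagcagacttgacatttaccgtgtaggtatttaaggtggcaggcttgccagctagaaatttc
SPBPB2B2.06c: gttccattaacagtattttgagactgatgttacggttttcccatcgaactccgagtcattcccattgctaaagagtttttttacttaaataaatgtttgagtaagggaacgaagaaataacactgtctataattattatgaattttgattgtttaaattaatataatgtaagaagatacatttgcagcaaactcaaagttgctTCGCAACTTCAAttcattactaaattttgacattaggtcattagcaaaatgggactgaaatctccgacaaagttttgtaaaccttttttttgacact
Both motifs were searched on both strands, and the marked matches do not overlap one another. The pho1 window held 2 Pho7 motifs, which start 187 and 155 bases before the gene, and no TATAAA. The tgp1 window held 1, starting 192 bases before the gene, and the SPBPB2B2.06c window held 1, starting 97 bases before it. No Pho7 motif was found in the pho84 window, which held 2 matches to TATAAA, nor in those of the other 5 genes. Of 5112 windows of the same length before coding genes, 110 (2.15%) held a Pho7 motif and 2615 (51.2%) held TATAAA. The Pho7 motif was taken from earlier biochemical work, and whether that work used these same promoters was not checked here. The shares are therefore a description and not a test of enrichment.

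All 4 acquisition genes were lower in cpn1∆ cells, by 1.35-fold to 7.10-fold, and none of the regulators, pho4 or SPNCRNA.1343 passed the test. The share of all 5812 features tested that were lower at an FDR under 0.05 was 10.2%, against 4 of the 9 genes. None of the 9 was higher, beside 8.36% of all features. The median log2FC (log2 of the cpn1∆ level over the wild-type level) was -0.10 over the 9 genes and 0.006 over all features tested. SPBPB2B2.06c and pho1 also passed the study's 2-fold limit, which 0.31% of all features passed in this direction. Levels below are in CPM, counts relative to the library total, after scaling by the trimmed mean of M-values (TMM), adjusted p-values are Benjamini-Hochberg values from edgeR's quasi-likelihood test over all features tested, and SE is the standard error.

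**Figure D1:**
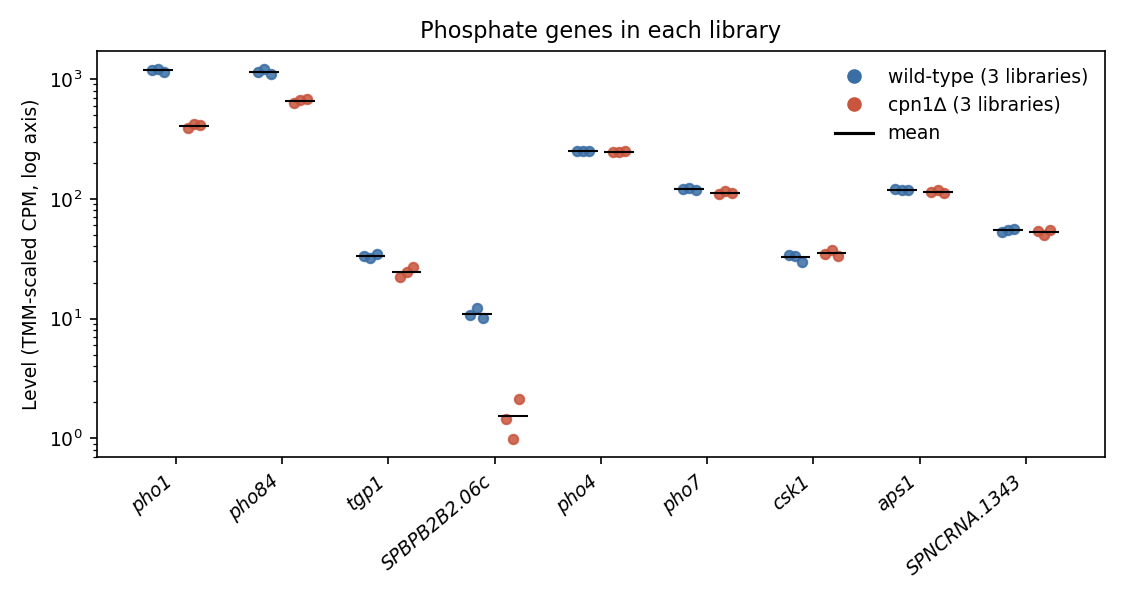
Level of each of the 9 genes in each library, in TMM-scaled CPM on a log axis, with blue points for the 3 wild-type libraries, red points for the 3 cpn1∆ libraries and black lines for the means. The red points lie below the blue points without overlap for pho1, pho84, tgp1, SPBPB2B2.06c and pho7, and pho1 moves from a mean of 1180 to 407 CPM.

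The acid phosphatase gene pho1 was among the more abundant transcripts of wild-type cells, at rank 165 of the features tested. Its level was 1196, 1202 and 1141 CPM in wild-type replicates 1, 2 and 3 and 386, 421 and 412 CPM in cpn1∆ replicates 1, 2 and 3. The cpn1∆ libraries all lay far below the wild-type ones, and within each genotype the libraries were close together. The mean fell from 1180 ± 33.5 to 407 ± 17.9 CPM (SD, n = 3), which is 2.90-fold lower (log2FC -1.54, SE 0.04, 95% interval -1.61 to -1.46, adjusted p = 1.47e-12 from edgeR). Only 10 of the features tested had a more negative log2FC. In bulk RNA, fewer cells that express pho1 and less pho1 RNA per cell cannot be told apart.

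The transporter gene pho84 lies directly before pho1 on the same strand, with 1306 bases between them. Its level was 1153, 1206 and 1100 CPM in the wild-type libraries and 627, 662 and 679 CPM in the cpn1∆ libraries. The groups did not overlap, and the fall was smaller than that of pho1. The means were 1153 ± 52.8 and 656 ± 26.6 CPM (SD, n = 3), 1.76-fold lower in cpn1∆ cells (log2FC -0.81, SE 0.04, adjusted p = 1.05e-08 from edgeR). The wild-type libraries held 1.04, 0.997 and 1.04 pho1 counts for each pho84 count, and the cpn1∆ libraries 0.617, 0.636 and 0.607. The log2 of this ratio was 0.72 lower in cpn1∆ cells, with p = 0.1 by a two-sided exact permutation test, the smallest value that 3 libraries against 3 can give.

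The most strongly reduced of the 9 was SPBPB2B2.06c, a gene annotated as a phosphatase of the extracellular 5′-nucleotidase family. Its level was low, with 283, 381 and 321 counts in wild-type replicates 1 to 3 against 42, 31 and 70 in the mutant replicates. In CPM these were 10.7, 12.2 and 10.1 against 1.46, 0.990 and 2.14. The cpn1∆ libraries were all far below the wild-type ones but spread more widely among themselves. The mean fell from 11.0 ± 1.07 to 1.53 ± 0.581 CPM (SD, n = 3), or 7.10-fold (log2FC -2.83, SE 0.18, 95% interval -3.22 to -2.44, adjusted p = 1.98e-07 from edgeR). It had the third most negative log2FC of all features tested.

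The glycerophosphodiester transporter gene tgp1 had the smallest fall of the acquisition genes. Its level was 33.1, 32.3 and 34.5 CPM in the wild-type libraries and 22.3, 24.3 and 27.2 CPM in the cpn1∆ libraries. The groups did not overlap. The mean fell from 33.3 ± 1.14 to 24.6 ± 2.44 CPM (SD, n = 3), 1.35-fold (log2FC -0.43, SE 0.07, 95% interval -0.58 to -0.29, adjusted p = 5.77e-04 from edgeR).

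None of the 3 regulator genes passed the test. The gene of the activator, pho7, measured 120, 122 and 118 CPM in the wild-type libraries and 109, 117 and 111 CPM in the cpn1∆ libraries. Every cpn1∆ library was below every wild-type library, but the difference was small and did not pass the test (log2FC -0.10, SE 0.03, adjusted p = 0.0581 from edgeR). It passed without wild-type replicate 3 (adjusted p = 0.0466) and without cpn1∆ replicate 2 (adjusted p = 0.0333). With pho7, 5 of the 9 genes had no overlap between the genotypes with cpn1∆ lower, a pattern that 18.1% of all features tested showed, and none had the opposite pattern, which 17.3% showed.

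For csk1, the gene of a kinase that activates cyclin-dependent kinases, the libraries gave 34.2, 33.1 and 29.9 CPM in wild-type and 34.9, 37.7 and 33.1 CPM in the mutant. These ranges overlapped (log2FC 0.12, SE 0.06, 95% interval -0.01 to 0.26, adjusted p = 0.203 from edgeR). The annotation places a non-coding RNA on the opposite strand over the whole of csk1, so its counts are uncertain. For aps1, the gene of a hydrolase that removes phosphates from inositol pyrophosphates, they gave 121, 118 and 119 CPM in wild-type and 115, 118 and 112 CPM in the mutant. These overlapped too (log2FC -0.05, SE 0.03, 95% interval -0.12 to 0.02, adjusted p = 0.285 from edgeR), and counted features on the opposite strand cover 37.2% of the gene.

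Pho4 is an acid phosphatase like Pho1, but its gene is repressed by thiamine. Its level was 248, 249 and 252 CPM in wild-type and 247, 245 and 250 CPM in the mutant. The libraries overlapped, and the interval of the log2FC ran from -0.07 to 0.04 (log2FC -0.02, SE 0.03, adjusted p = 0.707 from edgeR). Of the other 6 genes tested in a thiamine list, none passed the test in either direction, with a median log2FC of -0.003. The 6 include the transcription factor genes thi1 and thi5, and bsu1, annotated as a vitamin B6 import carrier. The list's nmt1 gene had no count in any library and was not tested.

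The non-coding RNA SPNCRNA.1343 is not nc-tgp1 itself. In the ASM294v3 annotation it lies on the strand opposite to tgp1, begins 1620 bases upstream of it, and is described as a non-functional partner that is transcribed away from nc-tgp1. It shares 204 of its 1543 bases with nc-tgp1, on opposite strands. It was measured at 52.7, 54.4 and 56.1 CPM in wild-type and 54.0, 50.3 and 54.4 CPM in the mutant. These ranges overlapped (log2FC -0.04, SE 0.04, 95% interval -0.14 to 0.05, adjusted p = 0.560 from edgeR). The RNAs prt, prt2 and nc-tgp1 were not analysed here, because no feature counted matched their identifiers. The annotation gives prt 1413 bases in common with pho1 (91.3% of the gene) and prt2 1870 bases in common with pho84 (89.0%), on the same strand. Counts assigned to pho1 and pho84 therefore cannot be divided between the mRNA and the upstream RNA that runs into it, whereas nc-tgp1 shares 77 bases with tgp1. Other non-coding RNAs, not analysed here, lie on the opposite strand over 89.5% of pho84 (SPNCRNA.6616) and over 1355 bases of tgp1 (SPNCRNA.4681), and opposite-strand features cover 67.6% of tgp1 in all. Whether the counting used strand is not known, so the values of pho84 and tgp1 are uncertain in this way as well.

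**Figure D2:**
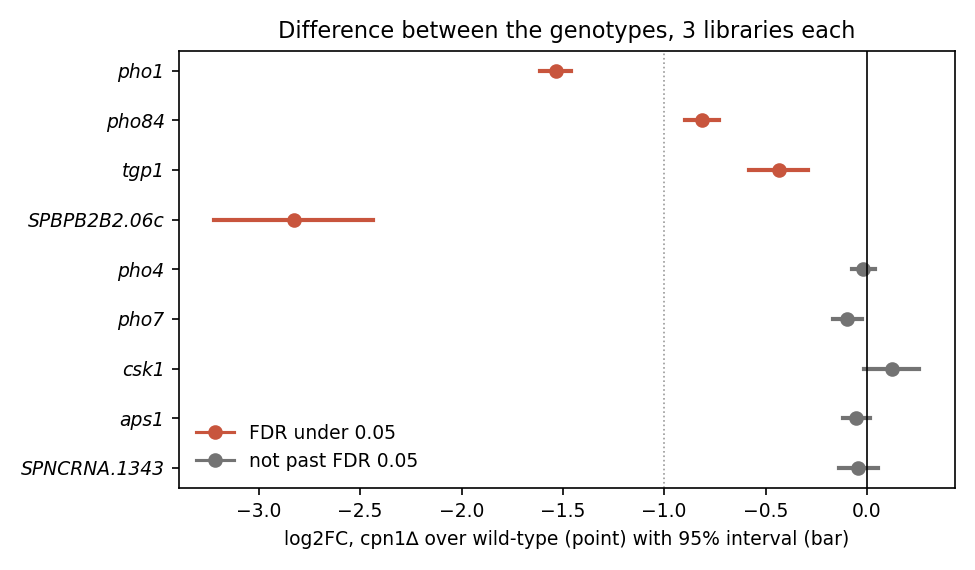
Difference between the genotypes for each gene, as log2FC of cpn1∆ over wild-type (point) with its 95% interval (bar), from 3 libraries per genotype. Red marks an FDR under 0.05, grey marks the rest, and the dotted line is the 2-fold limit, which only pho1 at -1.54 and SPBPB2B2.06c at -2.83 pass.

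Per kilobase of exon, pho1 was the most abundant of the 9 in wild-type cells, at 762 ± 21.6 CPM per kilobase (SD, n = 3), followed by pho84 at 549 ± 25.1. Next came pho4 at 147 ± 1.23, aps1 at 80.5 ± 1.01 and pho7 at 42.0 ± 0.760 CPM per kilobase. SPNCRNA.1343 at 35.2 ± 1.10 and csk1 at 29.7 ± 2.05 came next, and tgp1 at 15.8 ± 0.541 and SPBPB2B2.06c at 5.11 ± 0.50 CPM per kilobase were the lowest. No library of one gene overlapped a library of its neighbour in this order in wild-type cells. In cpn1∆ cells the first places changed over, with pho84 at 312 ± 12.7 and pho1 at 263 ± 11.6 CPM per kilobase, and SPNCRNA.1343 and csk1 overlapped. Reads of pho1 and pho84 cannot be separated from those of prt and prt2, so these places are not known to be those of the mRNAs.

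Of the 4 acquisition genes, pho84, pho1 and SPBPB2B2.06c lie in the last 100 kb of the right arm of chromosome II, at 93.6, 90.8 and 68.6 kb from its end. tgp1 lies 350.3 kb from the left end. Of the 25 other features tested in that last 100 kb, 8 were lower and 2 higher in cpn1∆ cells, with a median log2FC of -0.28. Over all 5812 features tested, 10.2% were lower and 8.36% higher, with a median log2FC of 0.006. The features around pho1 and SPBPB2B2.06c included called genes of both directions. The ecl3 gene, which runs away from pho84 and begins 2274 bases upstream of it, went from 4.22 ± 0.322 to 1.84 ± 0.616 CPM (SD, n = 3, log2FC -1.18, SE 0.20, adjusted p = 0.00115 from edgeR). On the other side of pho1, the non-coding RNA SPNCRNA.446 (log2FC -0.09, SE 0.43) and fub2 (log2FC -0.02, SE 0.28), a gene of the proteasome regulator family, overlapped between the genotypes at under 1 CPM. The non-coding RNA nam3, near SPBPB2B2.06c, was higher (8.82 to 13.7 CPM, log2FC 0.64, SE 0.10, adjusted p = 4.27e-04 from edgeR). So was pan5, a pantothenate synthesis gene (73.5 to 83.8 CPM, log2FC 0.19, adjusted p = 0.00398 from edgeR). SPBPB2B2.08 was lower (log2FC -0.90, SE 0.24, adjusted p = 0.0193 from edgeR), a call lost when wild-type replicate 2, wild-type replicate 3, cpn1∆ replicate 1 or cpn1∆ replicate 2 was left out, at adjusted p of 0.0577 to 0.0883.

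**Figure D3:**
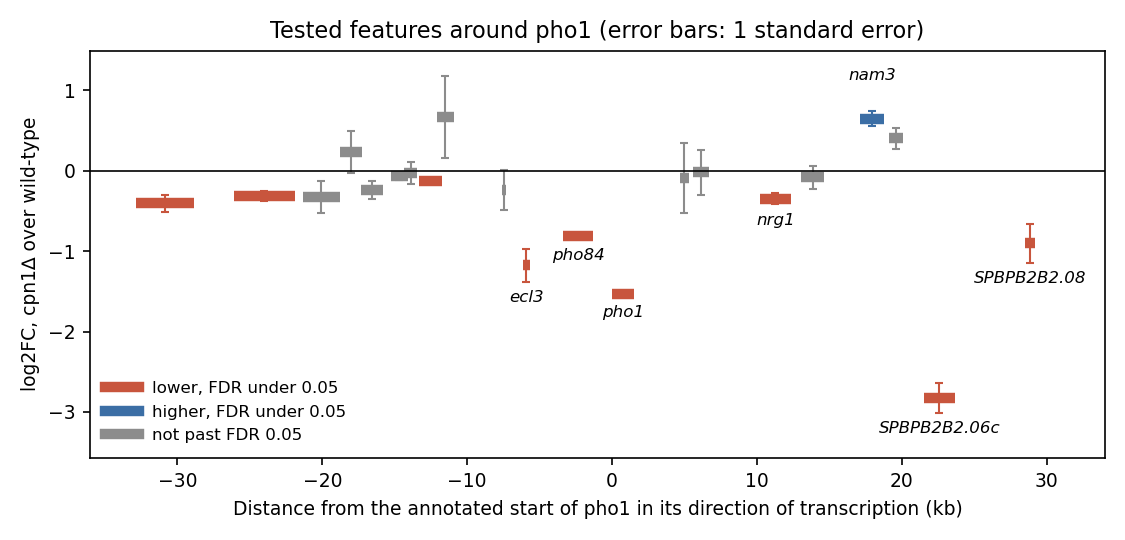
log2FC of the tested features around pho1, by distance in kilobases from its annotated start, with bars spanning each feature and error bars of 1 SE. Red features were lower and blue features higher at an FDR under 0.05, and pho84, pho1 and SPBPB2B2.06c stand at -0.81, -1.54 and -2.83 among features that were not called or moved less, except ecl3 at -1.18 and SPBPB2B2.08 at -0.90.

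The surroundings of tgp1 also moved in both directions. SPBC1271.10c, a transporter gene on the opposite strand whose end overlaps that of tgp1 by 67 bases, rose from 100 ± 0.734 to 129 ± 4.14 CPM (SD, n = 3, log2FC 0.37, SE 0.03, adjusted p = 3.12e-06 from edgeR). SPBC1271.08c, an uncharacterized gene 4173 bases upstream of tgp1, fell from 32.1 ± 2.39 to 16.3 ± 1.28 CPM (log2FC -0.98, SE 0.07, adjusted p = 8.30e-07 from edgeR). SPNCRNA.1343 lies between SPBC1271.08c and tgp1 and did not pass the test.

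**Figure D4:**
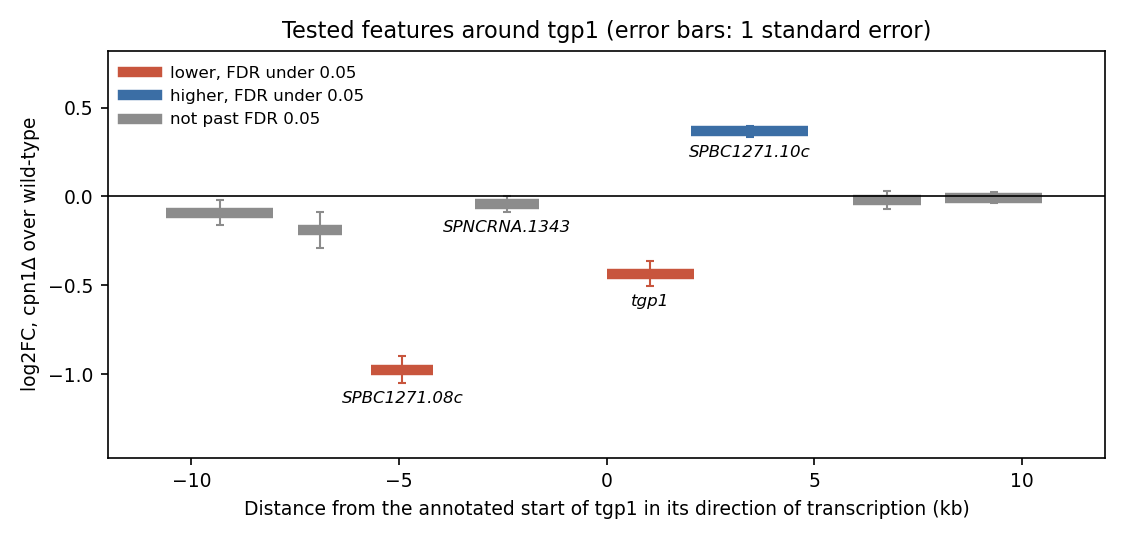
log2FC of the tested features around tgp1, by distance in kilobases from its annotated start, with bars spanning each feature and error bars of 1 SE. tgp1 at -0.43 and SPBC1271.08c at -0.98 were lower (red), SPBC1271.10c at 0.37 was higher (blue), and SPNCRNA.1343 at -0.04 was not called (grey).

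Of the 17 other phosphate transport and phosphatase genes tested, a list drawn from the words of the annotation that also holds some unrelated phosphatases, 6 were lower and 2 higher, with a median log2FC of -0.05. The shares over all features tested were 10.2% lower and 8.36% higher. The lower genes of the list included 3 further inorganic phosphate transporters. pho841 measured 402, 397 and 409 CPM in wild-type and 294, 308 and 318 CPM in the mutant, with no overlap (log2FC -0.39, SE 0.03, adjusted p = 1.16e-06 from edgeR). pho843 (log2FC -0.20, SE 0.03, adjusted p = 4.36e-04 from edgeR) and pho842 (log2FC -0.19, SE 0.04, adjusted p = 0.00694 from edgeR) had smaller falls. SPBC1703.13c, also annotated as an inorganic phosphate transporter, was 1 of the 2 higher genes. It rose from 388 ± 6.73 to 429 ± 9.36 CPM without overlap (SD, n = 3, log2FC 0.14, SE 0.03, adjusted p = 0.0026 from edgeR). The other higher gene was plg7, an esterase gene (log2FC 0.12, SE 0.04, adjusted p = 0.0453 from edgeR). gde1, which encodes a glycerophosphodiester phosphodiesterase, fell from 41.2 ± 1.18 to 33.7 ± 1.80 CPM (SD, n = 3, log2FC -0.29, SE 0.05, adjusted p = 0.0014 from edgeR). With scaling by total counts only, this list gave 4 lower and 4 higher genes, and leaving out wild-type replicate 2, cpn1∆ replicate 1 or cpn1∆ replicate 3 gave 1 higher gene.

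Inositol pyrophosphates and polyphosphate store and signal phosphate in the cell. Of the 11 genes tested that make, break down or respond to them, besides aps1, 7 were lower and none higher, with a median log2FC of -0.15. The shares over all features tested were 10.2% lower and 8.36% higher. The 7 lower genes included ipk1, the kinase gene that makes inositol hexakisphosphate, which fell from 156 ± 9.37 to 125 ± 3.76 CPM (SD, n = 3, log2FC -0.33, SE 0.04, adjusted p = 8.49e-05 from edgeR). The gene vtc2, annotated as a polyphosphate synthetase, fell from 478 ± 2.09 to 401 ± 8.91 CPM (log2FC -0.25, SE 0.03, adjusted p = 2.00e-05 from edgeR). The fall of vtc4, annotated as a transporter chaperone complex subunit, was smaller (log2FC -0.15, SE 0.03, adjusted p = 0.0018 from edgeR). asp1, the inositol pyrophosphate kinase gene, fell from 90.5 ± 1.90 to 78.4 ± 2.45 CPM (log2FC -0.21, SE 0.04, adjusted p = 0.00113 from edgeR). No gene of this list or of the other phosphate genes passed the 2-fold limit.

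**Figure D5:**
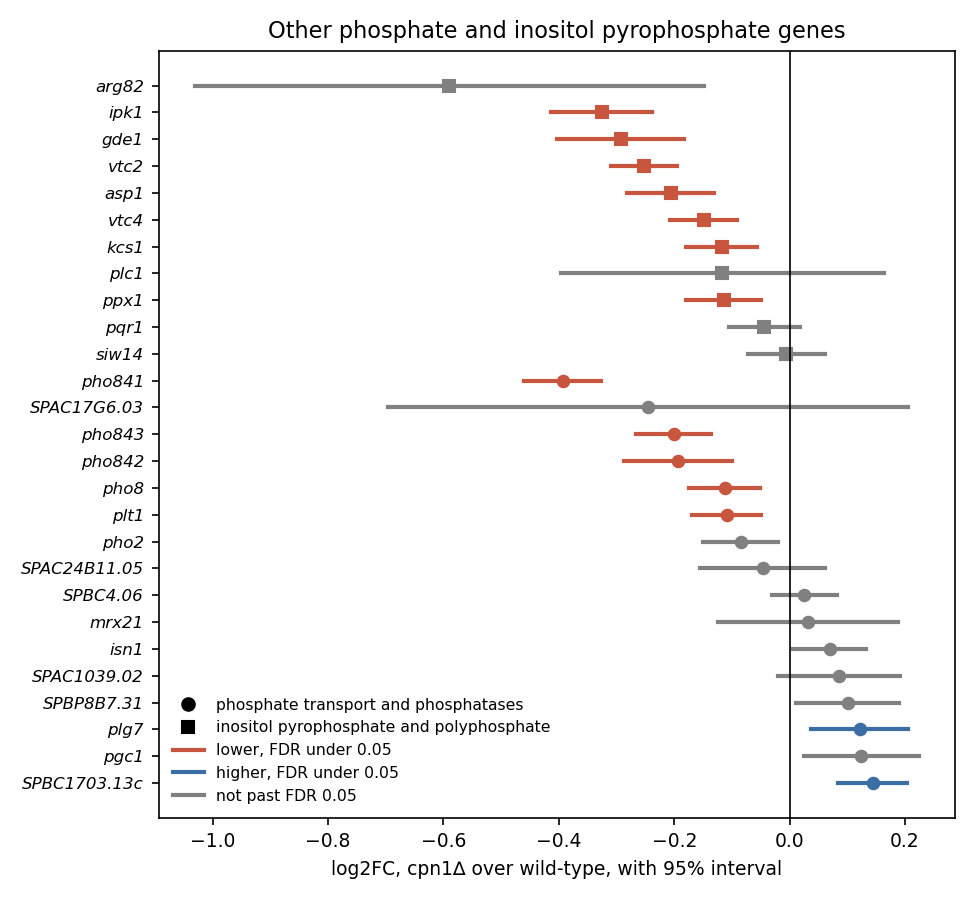
log2FC of the other phosphate transport and phosphatase genes (circles) and of the inositol pyrophosphate and polyphosphate genes (squares), with 95% intervals, from 3 libraries per genotype. gde1 is in both lists and is drawn once, and the largest falls past an FDR of 0.05 were those of pho841 at -0.39 and ipk1 at -0.33.

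Of 15 genes tested in a list for 3′ end processing and termination, 4 were lower and 1 higher, with a median log2FC of -0.02. The shares over all features tested were 10.2% lower and 8.36% higher. The 15 include clp1, which is annotated as a Cdc14 family phosphatase rather than a 3′ end factor and was not called (log2FC -0.04). dhp1, the 5′-3′ exonuclease gene that acts in termination, fell from 241 ± 1.36 to 191 ± 5.74 CPM (SD, n = 3, log2FC -0.34, SE 0.03, adjusted p = 2.29e-06 from edgeR). The cleavage factor gene cft1 was slightly lower (log2FC -0.15, adjusted p = 0.00211 from edgeR), as was the poly(A) polymerase gene pla1 (log2FC -0.11, adjusted p = 0.0168 from edgeR). cft2 was higher at a low level, from 3.84 to 5.38 CPM (log2FC 0.49, adjusted p = 0.0257 from edgeR), a call lost on leaving out wild-type replicate 1, wild-type replicate 3, cpn1∆ replicate 2 or cpn1∆ replicate 3 (adjusted p of 0.0575 to 0.113). Without wild-type replicate 2 or cpn1∆ replicate 2 the count of lower genes was 2, and pla1 was not called (adjusted p = 0.0880 and 0.0674). Scaling by total counts only also gave 2 lower genes in this list and ended the call of pla1 (adjusted p = 0.0957).

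Of 10 genes of the nuclear RNA elimination machinery, which degrades such RNAs, 3 were lower and 1 higher, with a median log2FC of -0.07. The shares over all features tested were 10.2% lower and 8.36% higher. rrp6, the nuclear exosome nuclease gene, fell from 208 ± 3.6 to 175 ± 4.95 CPM (SD, n = 3, log2FC -0.25, SE 0.03, adjusted p = 5.37e-05 from edgeR), and red5 had a log2FC of -0.19 (adjusted p = 0.00385). red1 (log2FC -0.11, adjusted p = 0.0234) lost its call on leaving out any library but wild-type replicate 3 and cpn1∆ replicate 1 (adjusted p of 0.0617 to 0.105), and with scaling by total counts only (adjusted p = 0.139), which left 2 lower genes in this list. pab2, which encodes a nuclear poly(A)-binding protein, was higher (log2FC 0.11, adjusted p = 0.0202) and lost its call on leaving out wild-type replicate 3, cpn1∆ replicate 2 or cpn1∆ replicate 3 (adjusted p of 0.0687 to 0.0833). Of 8 genes of the RNA polymerase II tail and its kinases tested besides csk1, 1 passed the test, rpb1 (log2FC -0.13, adjusted p = 0.00749 from edgeR), and 1 was also higher with scaling by total counts only or without wild-type replicate 3.

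Over the 6 libraries, the features whose log2 CPM, centred on the wild-type mean, lay nearest to that of pho1 (Euclidean distance) were SPAC212.12 at 0.39, SPAC750.07c at 0.58, aes1 at 0.59, grt1 at 0.73 and SPBCPT2R1.06c at 0.73. All 5 lie near chromosome ends, from 3.57 to 70.1 kb away. Among the 9 genes, pho84 was the nearest to pho1, at rank 18 of all features, followed by tgp1 at rank 88 and SPBPB2B2.06c at rank 616. Because levels were centred on the wild-type mean, the distance mostly restates how close each log2FC is to that of pho1 (-1.54). It adds no separate measure of likeness, and SPBPB2B2.06c ranks low because it fell further (-2.83).

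Library totals ran from 26461217 to 32916622 counts. The deleted gene cpn1 went from 285 ± 1.74 to 5.88 ± 0.0667 CPM (SD, n = 3, log2FC -5.60), and ura4, which both strains lack (ura4-D18), had no count in any library. Because nmt1 had no count either, the lack of ura4 counts is no check of that deletion. It also cannot tell the genotypes apart.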

How the data were processed

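RNA from 3 wild-type and 3 cpn1∆ libraries was measured. The authors selected polyadenylated RNA, trimmed reads with Cutadapt 4.8, aligned them with STAR 2.7.10b to ASM294v2, and deposited expected counts per feature from featureCounts, with no normalization. Of 7268 features, 760 carry fractional counts, among them pho84 and tgp1, and all were rounded. Whether counting used strand, and how multimapping reads were treated, is not given in sources used here. The row naming no gene (0.608% to 0.647% of each library) was left out. Totals of 26461217 to 32916622 counts leave the low genes the least precise.

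Genotypes were compared with edgeR 4.0.16 in R 4.3.3 (TMM, filterByExpr with a minimum count of 10, quasi-likelihood test with legacy set to FALSE, Benjamini-Hochberg adjustment over 5812 features). SE is the absolute log2FC over the square root of F. The fit was also run on counts simulated with dispersions estimated from these data, which does not check the calls made here. Positions came from ASM294v3, which 6846 features matched. Replicates differed by more than sampling noise (chi-square per gene 4.69 to 11.0).

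Members, lists and tests were chosen with earlier results of these data known. Named genes are the 9 members, counted features within 3 kb upstream of pho1, pho84 and tgp1 or overlapping them, up to 3 neighbours a side, up to 4 called genes per list and the 5 features nearest to pho1. SPBC1271.08c, within 5 kb, was added after its value was seen, as were SPBC1703.13c, plg7, vtc4, clp1, nmt1 and bsu1 of the lists. Alternatives were other scalings, filters and tests (DESeq2 1.42.0, limma 3.58.1), the replicate block, left-out libraries, coding genes only, unrounded counts, other upstream distances and gene span. The study's other experiments were not analysed here.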

Additional observations from a re-analysis of the deposited data

How the results depend on the processing

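Over 19 alternatives, 166 of 170 log2FC values of the 9 genes kept their direction and their side of the threshold. The fall ranged from -1.56 to -1.50 for pho1, -0.85 to -0.78 for pho84, -0.52 to -0.37 for tgp1 and -3.17 to -2.59 for SPBPB2B2.06c, each lowest and highest value coming from leaving out 1 library. pho4 turned to 0.0086 (adjusted p = 0.872 from edgeR) with scaling by total counts only. The exceptions for pho7 were passes of the threshold without wild-type replicate 3 (-0.11), without cpn1∆ replicate 2 (-0.13) and with the replicate number as a block (-0.10, adjusted p = 0.0405 from edgeR). Same-numbered libraries did not deviate together (correlations of -0.05, 0.05 and 0.09), so the numbers were not taken to pair the libraries, and the block made 5 genes lower in place of 4. Counted features that lie upstream of pho1, pho84 or tgp1 or overlap them numbered 4 within 3 kb, 1 within 1 kb and 8 within 5 kb, and the 1 is SPBC1271.10c, which overlaps the end of tgp1 and is not upstream of it. With introns included, csk1 measured 25.6 CPM per kilobase in wild-type cells. No alternative scaling moved the median of all features by more than 0.03 (log2). Depth limits SPBPB2B2.06c most, at 31 to 70 counts in the cpn1∆ libraries, and reads of pho1 and pho84 cannot be separated from those of prt and prt2.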

Other observations

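The Pho7 motif windows were followed to the other genes that hold one, a set chosen after the data were seen. Of 96 further coding genes tested with a Pho7 motif in the 300 bases before the gene, 12 (12.5%) were lower and 7 (7.29%) higher in cpn1∆ cells, beside 11.9% and 9.12% of all 4714 coding genes tested, and none passed the 2-fold limit. Their median log2FC was 0.01. Among them, the amino acid permease gene aat1 fell from 259 ± 8.54 to 200.3 ± 2.64 CPM (SD, n = 3, log2FC -0.37, SE 0.03, adjusted p = 1.43e-06 from edgeR), and tna1, a nicotinic acid transporter gene, had a log2FC of -0.28 (SE 0.06, adjusted p = 0.0084 from edgeR). isp7, an oxygenase gene, rose from 42.4 ± 2.19 to 53.2 ± 4.30 CPM (log2FC 0.32, SE 0.06, adjusted p = 0.00166 from edgeR).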
